A study of Mus musculus with 8 samples.

Results

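The replication-dependent histone genes were described here by the CTCF regions in and around their clusters. Members were the protein-coding genes of the RefSeq table for GRCm38.p6 whose current or older symbol is a replication-dependent histone name, which gave 67 of 21887 genes. Of these, 63 matched by current symbol and 4 by their older name alone: H4f16 (Hist4h4), H2bu2 (Hist3h2ba), H2aw (Hist3h2a) and H4bc24 (Hist1h2br, an H2B gene). Members up to 500 kb apart were joined and each cluster was widened by 50 kb on each side. These clusters with flanks held 42 of the 33815 control regions and 48 of the 36186 NMDA regions.

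The data are CTCF ChIP-seq from primary cortical neurons of wild-type Swiss-Webster mouse embryos at embryonic day 16, crosslinked on day 13 in vitro. Control cultures were untreated, and NMDA cultures, stimulated with an agonist of glutamate receptors, received 50 µM NMDA for 10 minutes and recovered for 50 minutes without the drug. Each condition had 2 replicates, called biological replicates in the labels, and 1 deposited list of reproducible regions over both. A growth protocol shared by all samples mentions etoposide, a topoisomerase inhibitor, but no sample is labelled with it. The lists hold no expression values, so the neurons could not be checked against cell type markers, and any dividing glia in the cultures were not measured. With 1 list per condition, a difference between the lists has no replicate spread to be judged by.

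Replication-dependent histone genes make the core histones H2A, H2B, H3 and H4 and the linker histone H1 that package newly copied DNA during S phase. Their short, intronless transcripts end in a stem-loop bound by SLBP in place of a poly(A) tail, and NPAT drives their transcription in nuclear bodies that form at the clusters. CTCF binds a long DNA motif through its zinc fingers and, with cohesin, anchors chromatin loops and domain borders. Neurons no longer divide, but whether any cells of these cultures were in the cell cycle was not measured.

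The promoter sequences below belong to members whose annotated start lay inside a CTCF region of both lists, to 1 with a control-only region at its start, and to 2 with a match to the CTCF motif. They come from RefSeq (GRCm38.p6), and each is the 250 bases before the annotated start, 5′ to 3′ on the gene's strand. Capitals mark matches on either strand to a loose form of the CTCF core motif (12 letters, some of them free), to CCAAT and to TATAAA. Starts inside a region in both lists belonged to an H2A gene and 3 H4 genes.
H2aw (chr11:58954435-58954684, + strand): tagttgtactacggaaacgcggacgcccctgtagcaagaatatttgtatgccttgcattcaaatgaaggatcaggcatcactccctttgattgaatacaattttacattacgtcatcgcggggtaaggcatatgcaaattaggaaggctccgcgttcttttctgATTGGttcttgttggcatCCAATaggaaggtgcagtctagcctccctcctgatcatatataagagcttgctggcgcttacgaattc
H4c11 (chr13:21734784-21735033, + strand): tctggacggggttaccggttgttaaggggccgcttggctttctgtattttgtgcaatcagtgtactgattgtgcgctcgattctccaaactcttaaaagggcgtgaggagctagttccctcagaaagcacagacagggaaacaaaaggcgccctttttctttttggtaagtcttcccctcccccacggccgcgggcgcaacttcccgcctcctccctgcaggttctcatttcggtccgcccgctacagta
H4c6 (chr13:23551669-23551918, - strand): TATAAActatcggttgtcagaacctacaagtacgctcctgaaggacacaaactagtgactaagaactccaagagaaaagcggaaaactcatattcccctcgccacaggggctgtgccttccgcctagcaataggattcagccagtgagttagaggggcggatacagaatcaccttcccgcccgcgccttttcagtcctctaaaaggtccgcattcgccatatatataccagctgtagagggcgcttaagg
H4c3 (chr13:23698459-23698708, - strand): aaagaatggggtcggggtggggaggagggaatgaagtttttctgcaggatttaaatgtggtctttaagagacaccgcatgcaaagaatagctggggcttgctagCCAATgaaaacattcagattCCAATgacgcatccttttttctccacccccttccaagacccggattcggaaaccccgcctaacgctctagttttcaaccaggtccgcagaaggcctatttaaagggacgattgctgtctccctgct
The start of H4f16 lay inside a control-only region.
H4f16 (chr6:136804432-136804681, - strand): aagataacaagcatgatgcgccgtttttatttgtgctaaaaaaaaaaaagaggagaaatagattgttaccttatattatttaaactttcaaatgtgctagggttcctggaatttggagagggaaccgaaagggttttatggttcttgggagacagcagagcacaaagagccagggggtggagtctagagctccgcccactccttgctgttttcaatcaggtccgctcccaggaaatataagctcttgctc
H3c14 and H3c15, a near-duplicate pair on chromosome 3, were the members with a match to the loose CTCF core.
H3c14 (chr3:96246435-96246684, + strand): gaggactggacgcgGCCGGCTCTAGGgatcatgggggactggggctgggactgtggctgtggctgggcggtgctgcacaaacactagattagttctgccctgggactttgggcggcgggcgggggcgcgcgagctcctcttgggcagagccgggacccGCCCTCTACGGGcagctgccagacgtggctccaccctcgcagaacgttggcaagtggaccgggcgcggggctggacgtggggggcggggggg
H3c15 (chr3:96239128-96239377, - strand): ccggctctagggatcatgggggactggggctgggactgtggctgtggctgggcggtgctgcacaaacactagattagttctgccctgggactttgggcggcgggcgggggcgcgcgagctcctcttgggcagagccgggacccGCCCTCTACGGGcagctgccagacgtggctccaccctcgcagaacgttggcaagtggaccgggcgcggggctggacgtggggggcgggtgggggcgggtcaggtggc

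H3c14 and H3c15 had no region within 1 kb. The summits of the regions at the other 5 genes lay outside the bases printed, so those bases do not show what lies under the summits. The nearest control summit was 14471 bp from H3c14 and 22692 bp from H3c15. Promoter windows of 300 bases, 250 before and 50 after the start, were given for 62 of the 67 members (63 windows, since H2bc6 has 2 starts). H2bc4, H2bc21, H3c1, H3c7 and H4c14 had none. The loose core lay in 2 of 63 member windows (3.17%) and in 8.61% of all 32851 windows. A stricter form with fewer free letters lay in 0 member windows and in 1.28% of all windows. A match describes letters in this window only.

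The short motifs of elements known from histone promoters were counted anywhere in the member windows, whatever their distance from the start. CCAAT, on either strand, was in 54 of 63 windows (85.7%), against 37.4% of all windows. It was in every window of H1, H2A, H2B and H3 genes and in 3 of 12 H4 windows. For H3c14 and H3c15 the 250 bases before the start held no CCAAT. Their matches thus reached into the 50 bases after the start. TATAAA was in 35 windows (55.6%, against 13.6% of all), and ATTTGCAT, the octamer, in 14 (22.2%, against 1.74%), of which 7 were H2A and 7 H2B windows. H2A and H2B genes often lie head to head, so neighbouring windows can overlap and share an element. The TATAAA marked above for H4c6 lay at the end of the printed bases farthest from the start. A match therefore need not be a promoter element.

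Most histone genes had no CTCF region close by. A summit lay within 1 kb of the gene span in 16 of 67 members (55.4% of all protein-coding genes). By the control list alone it was 14 (51.4% of all genes) and by the NMDA list 13 (52.7%). Of these 16, 11 had a shared region, 3 a control-only and 2 an NMDA-only region, and no member had more than 1 class. Over all protein-coding genes, 48.4% had a shared, 9.28% a control-only and 14.0% an NMDA-only region by the same rule. Most genes are far longer than a histone gene, and 61 of the 67 members span at most 1 kb. Of those 61, 10 had a shared region, 3 a control-only and 2 an NMDA-only region. Among the 1516 other protein-coding genes of at most 1 kb, the percentages were 1.98, 0.198 and 0.330. A region of any class lay at 15 of the 61 short members and at 2.44% of the other short genes. By the control list it was 13 of 61 against 2.11%, and by the NMDA list 12 of 61 against 2.24%. Of these 1516 genes, 971 are named as olfactory or vomeronasal receptors, so they are a background of another kind of gene. Annotated starts were counted as well, with a gene counted once if any of its starts was covered. The start lay inside a control region for 8 of 62 members (12.9%, 95% Wilson interval 6.69 to 23.4) and inside an NMDA region for 4 (6.45%, 2.54 to 15.4). The percentages over 17492 protein-coding genes were 25.6 and 25.2. With genes of 1 annotated start alone, a choice made after seeing the data, they were 23.5 and 22.9 over 14731 genes, beside 8 and 4 of 61 members. Of the 4 starts covered in control alone, only that of H4f16 was in a control-only region. H2bu2, H2bc13 and H2ac15 had a shared region whose NMDA border stopped short of the start, at H2bu2 at 58948921 for a start at 58948911 and at H2ac15 at 21753902 for a start at 21753912.

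The 5 kinds of histone gene carried regions to different extents, as the plot of genes by histone shows. None of the 6 linker histone H1 genes had a summit within 1 kb; the closest, H1f6, which encodes the testis H1, was 1023 bp from one. Of the 18 H2A genes 2 had a region, both shared, and of the 18 H2B genes 6 had one, 5 shared and 1 control-only. Of the 12 H3 genes 3 had one, 2 NMDA-only and 1 control-only, and none a shared region. Of the 13 H4 genes 5 had one, 4 shared and 1 control-only. These counts are small, and differences between the kinds were not tested.

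**Figure D1:**
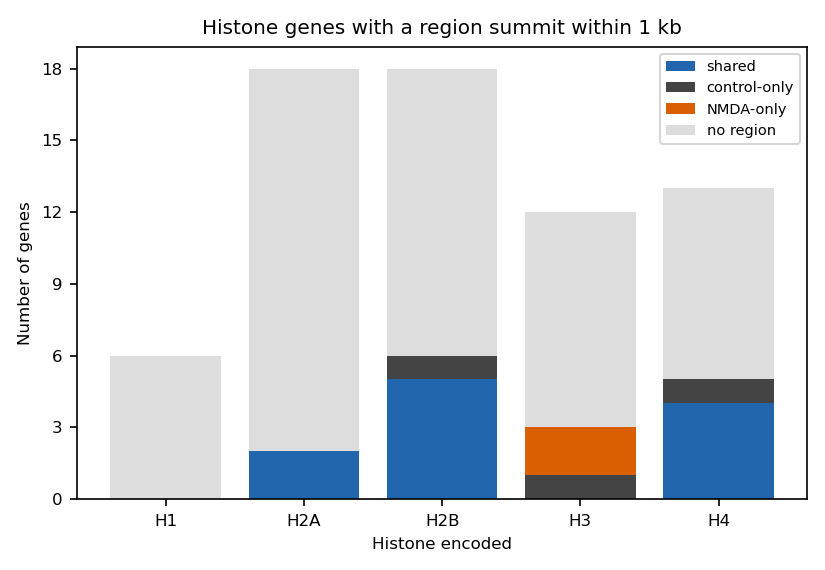
Number of histone genes (y axis) by the histone they encode (x axis), divided by the class of the CTCF region whose summit lies within 1 kb of the gene span. Shared regions lie at 2 H2A, 5 H2B and 4 H4 genes, while H3 genes have list-only regions alone and the 6 H1 genes have none.

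Among H4 genes, which encode the histone H4 of the nucleosome core, the strongest region lay at H4c11 (chromosome 13, 21733364 to 21735471, mm10). Its −log10 p was 362 in the control list, at percentile 80.5 of that list, where 100 is the strongest. In the NMDA list (21733953 to 21735443) it was 291, at percentile 86.7, with 81.7 in the first and 209 in the second replicate column. The summit was 726 bp before the start in control and 704 bp in NMDA. At H4c14 on chromosome 3 (96262818 to 96264098) the values were 298 in control, percentile 73.2, and 175 in NMDA, percentile 71.3, with 53.7 and 122 in the replicate columns. At H4c3 (chromosome 13, 23697166 to 23698469) they were 272 and 197, percentiles 69.7 and 74.9, with 64.4 and 132 in the replicate columns. The region at H4c3 covered the start, with its summit 890 bp downstream of it, beyond the 3′ end of the gene. At H4c6 (chromosome 13, 23551102 to 23551939) the summit was 39 bp after the start in control and 31 bp in NMDA. This region was weaker, at 143 and 65.9, percentiles 44.6 and 40.1, with 38.4 and 27.5 in the replicate columns. All 4 H4 regions kept their summits within 22 bp between the lists.

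Of the H2A and H2B genes, 2 H2A and 5 H2B genes had a shared region and H2bc3 a control-only one. On chromosome 11 H2aw, an H2A gene, lay under the highest-ranked region at any member in the control list (58954568 to 58955760), with a control value of 432 at percentile 86.2. Its NMDA value was 207 at percentile 76.7, with 111 and 95.8 in the replicate columns. The summit was 295 bp after the start in control, inside the gene and also within 1 kb of Trim17. Its neighbour H2bu2, an H2B gene, had a weaker region (58948897 to 58949932), at 106 and 48.0, percentiles 34.3 and 30.1. The replicate columns held 18.9 and 29.2. The head-to-head pair H2ac15 and H2bc15 on chromosome 13 shared 1 region (21753223 to 21753944), at 71.1 and 48.1, percentiles 20.7 and 30.1. Here the replicate columns held 28.9 and 19.1. H2bc13 (21714419 to 21716218) and H2bc11 (22043449 to 22044750), the outermost genes of the first chromosome 13 block, each had a region with its summit past their 3′ end. The values at H2bc13 were 284 and 193, with 39.2 and 154 in the replicate columns. Those at H2bc11 were 154 and 77.9, with 14.2 and 63.8 in the replicate columns. H2bc6 counts only through a long annotated span of 37455 bp. Its region (23597680 to 23599076, 306 and 253, percentiles 74.2 and 82.8) had its summit at −12192 bp from the nearer of its 2 starts. The replicate columns of this region held 58.8 and 194.

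List-only regions at members lay below the middle of their own list, as list-only regions mostly do. The median percentile of all control-only regions was 9.51, and of all NMDA-only regions 12.3. H4f16, alone on chromosome 6, had a control-only region (136803939 to 136804769) of −log10 p 44.5, at percentile 5.93. Its summit was 223 bp after the start, inside the gene. A control-only region between H3c3 and H2bc3 on chromosome 13 (23746066 to 23746678), 53.2 at percentile 11.3, counts for both genes. An NMDA-only region inside H3c7 (23544421 to 23544918) had 19.7, at percentile 1.31, with 10.0 and 9.65 in the replicate columns. The other NMDA-only region lay 853 bp before the start of H3c6 (23562859 to 23563585). It had 51.8 at percentile 32.6, above the median of NMDA-only regions, with 11.3 in the first and 40.5 in the second replicate column. None of these 4 regions had the top score of 1000. The region at H3c6 remained NMDA-only at a score of at least 830, and the other 3 were below that score.

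The stretch without a summit that held the most members lay in the first chromosome 13 block. Between the regions at H2ac15 and at 21928372, 11 members lay in 175 kb with no summit in either list. They run from H2bc15, whose span is within 1 kb of the first of these regions, over H1f5 and H3c11 to H4c18, H2ac24 and H4bc24. Of all distances between neighbouring summits, 9.07% were at least as long in the control list and 8.35% in the NMDA list. H4bc24 was 80102 bp from the nearest control summit, H2ac24 79383 bp and H4c18 78151 bp. This stretch holds near-identical gene copies, where reads may not be placed uniquely. The windows of H2bc23 and H4bc24 were identical over 300 bases, those of H4c17 and H4c18 shared a run of 285 bases and those of H2ac23 and H2ac24 one of 200. Over all 62 members with a window, 5 pairs shared a run of at least 100 bases; H3c14 with H3c15 (231) and H2ac18 with H2ac19 (219) on chromosome 3 were the others. None of these 10 genes had a region within 1 kb. The part of read placement in this was not tested. In the control list a longer stretch of 194 kb held 2 members, the farthest from any summit: H2bc1 (93545 bp) and H2ac1 (92788 bp), the testis H2B and H2A genes at the end of the second chromosome 13 block. In the NMDA list they were 8878 and 8121 bp from a weak NMDA-only region.

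Outside the genes, strong regions stood near several cluster edges. The map of the clusters shows them as tall lines in the shaded flanks. On chromosome 3 (10 genes, 96219885 to 96270192) the strongest region lay 7.92 kb beyond H2bc18 (96277204 to 96279320). It had 1186 in control, percentile 98.7, and 583 in NMDA, percentile 97.7, with 273 and 309 in the replicate columns. On the other side, the nearest region was 10.4 kb from H2ac21 and weak (96209103 to 96209893, percentiles 23.5 and 30.5), so the edges of this cluster differed in rank.

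The first chromosome 13 block (23 genes, 21715711 to 22043658) had a strong region at each end. One lay 5.62 kb past the 3′ end of H2bc13 (21709421 to 21710564, 540 and 363, percentiles 91.5 and 91.6). The other lay 7.47 kb after H2bc11 (22050226 to 22051593, 923 and 436, percentiles 97.3 and 94.7). Inside the block, a long stretch without histone genes separates 18 genes from the last 5. There a strong region (21973597 to 21975423, 525 and 435, percentiles 90.9 and 94.7) lay 60.8 kb from H2ac12, the nearest member. Another (22028270 to 22029392, 816 and 557, percentiles 96.5 and 97.4) lay 6.22 kb past the 3′ end of H2ac12. The last 5 genes, H2ac12 to H2bc11, thus had a region above percentile 94 on both sides in both lists.

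The second chromosome 13 block (31 genes, 23531044 to 23934913) began with a region 6.22 kb before H4c8 (23524247 to 23525340, 420 and 296, percentiles 85.4 and 87.2). After H1f1, the last gene before a long gap, a region followed at 28.3 kb, within 1 kb of Trim38 (23792265 to 23793239, 442 and 236, percentiles 86.9 and 80.8). H2bc1 and H2ac1, which close the block, had no control region within 50 kb of their outer side. Between the genes of this block, regions at H1f2 (6130 bp before it, 23732068 to 23733673, percentiles 78.7 and 75) and 2889 bp from H4c3 (23700856 to 23701654, percentiles 59.1 and 71.8) were shared. The region near H4c3 was also within 1 kb of Hfe, a gene outside the histone family.

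On chromosome 11 (H2bu2 and H2aw) the strongest flanking region was 34.0 kb from H2bu2 (58913887 to 58915457, percentiles 81.5 and 85.2). H4f16 on chromosome 6 had none above percentile 15 in either flank, and none at all within 50 kb on its low side. The clusters joined at 500 kb have 10 outer edges. In each list 4 of them (40.0%, 95% Wilson interval 16.8 to 68.7) had a region above percentile 80 within 10 kb. Within 50 kb 5 of the 10 (50.0%, 23.7 to 76.3) had one. Joining at 100 kb, the alternative setting, gives 7 groups and 14 outer edges. Of these, 5 (35.7%, 95% Wilson interval 16.3 to 61.2) had a region above percentile 80 within 10 kb, in each list. Of the 43774 edges of all protein-coding genes, 9.05% did in the control and 9.51% in the NMDA list. Within 50 kb it was 7 of the 14 (50.0%, 26.8 to 73.2) in each list, against 26.6% and 28.1% of the edges of all genes. The edges of either count come from 4 chromosomes and are not independent, and the difference was not tested.

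**Figure D2:**
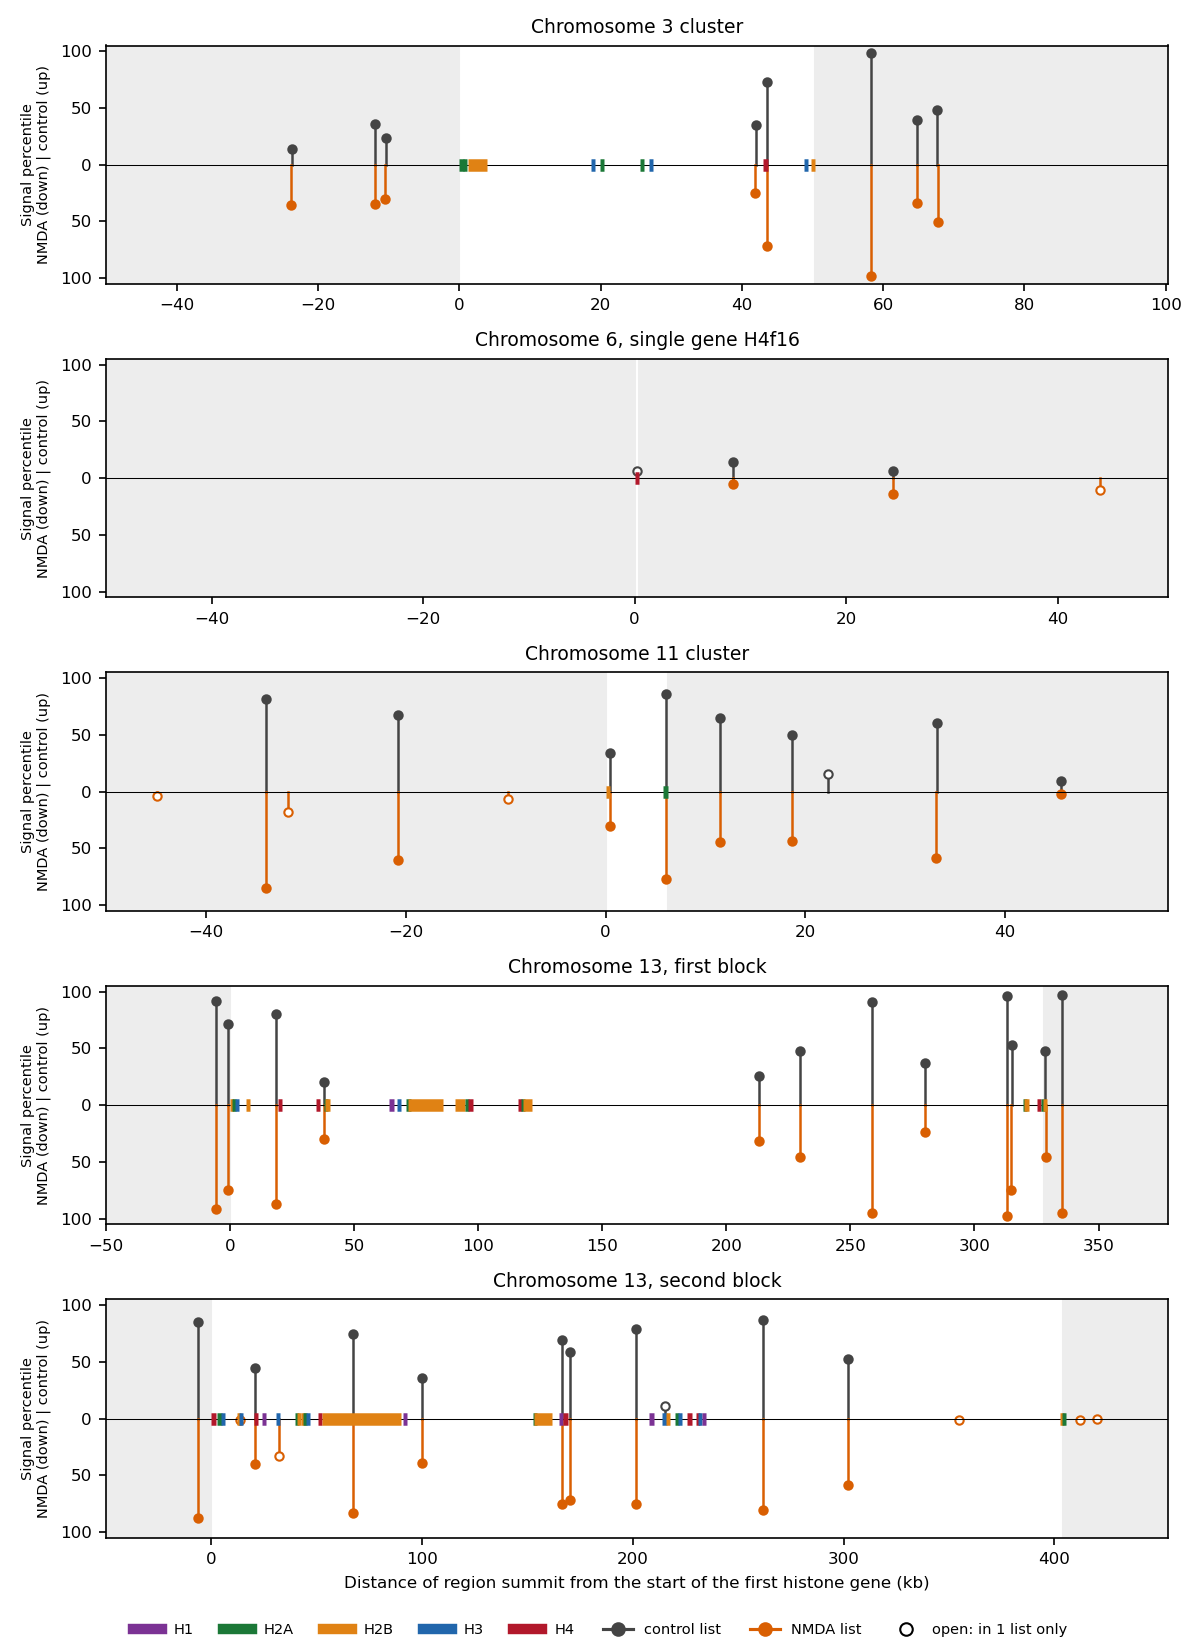
Each panel is a cluster with its 50 kb flanks (grey), with the distance of a summit from the start of the first histone gene in kb on the x axis. Lines give the signal percentile of each region within its list, control upward and NMDA downward, with open circles for regions in 1 list alone and coloured bars for the genes by histone (short genes are drawn wider than they are). Tall lines above percentile 90 stand at the right edge on chromosome 3 and at both edges of the first chromosome 13 block, with 2 more inside that block.

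The regions of the clusters lay near the middle of their lists by median rank. The median percentile was 51.3 in the control and 43.6 in the NMDA list, where 50 is the list median. By position, the medians in control were 58.5 for the 12 regions at histone genes, 52.5 for the 12 between them and 49.2 for the 18 in the flanks. In NMDA they were 58.3 (12 regions), 58.4 (13) and 34.9 (23). In control, 5 of the 42 were above percentile 90, and in NMDA 5 of the 48, none of them within 1 kb of a histone gene in either list. The top score of 1000 was held by 29 of 42 control regions (69.0%, against 67.3% of the list) and by 35 of 48 NMDA regions (72.9%, against 75.2%). Neighbouring summits within a cluster were a median of 13.7 kb apart in both lists, against 26.8 kb in the whole control and 24.6 kb in the whole NMDA list. These medians leave out the gaps that cross the border of a flank. With those gaps, a choice made after seeing the data, they were 19.4 kb in control and 16.6 kb in NMDA. Gene density around the clusters was not measured, and its part in this spacing was not tested.

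Most regions were found in both lists. Control-only regions were 3 of 42 (7.14%, 95% Wilson interval 2.46 to 19), against 9.22% of the whole list. NMDA-only regions were 9 of 48 (18.8%, 10.2 to 31.9), against 15.5%. Both intervals include the share in the whole list. The NMDA-only share was 7.50% (3 of 40) when the NMDA list was cut to the length of the control list, against 11.7% of the whole list cut in that way. With a score of at least 830 in both lists it was 10.8%, against 18.0% of the whole list. The chromosome 3 cluster and the first chromosome 13 block held no list-only region, with 8 and 12 regions in each list. The second chromosome 13 block held 5 of the 9 NMDA-only regions, chromosome 11 held 3 and chromosome 6 held 1. In position, 6 of the 9 were in flanks, 1 was between histone genes and 2 were at H3c7 and H3c6.

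The list-only regions away from histone genes were mostly at the bottom of their list. Within 1 kb of the spans of other genes, NMDA-only regions lay at Art4 (chromosome 6, 136847636 to 136848549, percentile 10.3), Zfp39 (chromosome 11, 58903700 to 58904702, 3.98), Btnl10 (58916353 to 58917582, 18.3), Rnf187 (58938022 to 58939356, 6.43) and Slc17a1, a phosphate transporter gene (chromosome 13, 23885322 to 23886088, 1.10). The last 2 lay beyond H2ac1 (23942825 to 23943324 and 23950953 to 23951330, percentiles 1.25 and 0.475). The control-only region away from histone genes was at Trim17 (chromosome 11, 58970923 to 58971354, percentile 15.2). Of the 9 NMDA-only regions 6 were at or below percentile 10, beside 2373 of the 5616 NMDA-only regions of the whole list. Their median percentiles were 3.98 and 12.3, and the difference was not tested. Of the 3 control-only regions 1 was at or below percentile 10, beside 1606 of 3117 in the whole list.

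Shared regions had similar ranks in both lists. All 39 shared control regions had a partner of their own. Of these, 19 (48.7%, against 62.4% of all shared control regions) had a higher and 20 a lower percentile in NMDA. The median difference, NMDA minus control, was −1.04 points, and the median size of the difference was 5.33 points, against 2.53 and 6.66 over all 30698 shared control regions. Summits were a median of 19 bp apart and at most 85 bp, against a median of 18 bp over all shared regions. The quartiles of the difference were −4.88 and 5.61 points, against −3.16 and 9.49 over all shared control regions. In size, the difference was over 10 points for 5 regions of the clusters, and the share over all shared regions was not counted. The region 4.45 kb past the 3′ end of H2ac12 (22029974 to 22031398) went from percentile 52.6 to 74.9, with 33.3 and 163 in the replicate columns. A region at Sv2a and Bola1 in the chromosome 3 flank (96195259 to 96196448) went from 13.9 to 35.3. The one at Hfe, 2889 bp from H4c3, went from 59.1 to 71.8. The region at Trim17 5.20 kb past H2aw (58959748 to 58960708) went from 64.9 to 44.1, and one between the 2 gene groups of the first chromosome 13 block (21994670 to 21996083) from 37.2 to 23.9. Without replicate values for the control list, none of these differences has an error.

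**Figure D3:**
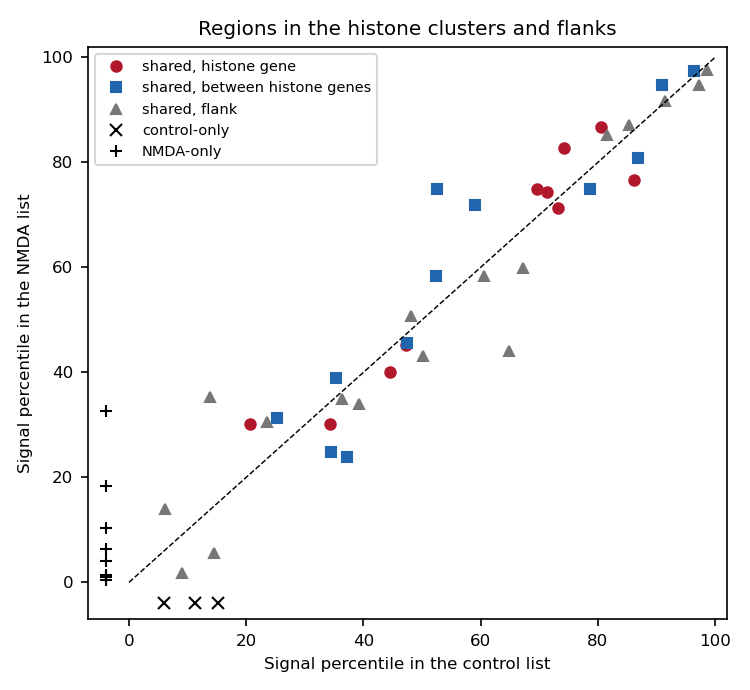
Signal percentile of each region in the clusters and flanks in the control list (x axis) and of its partner in the NMDA list (y axis), with the dashed line at equal percentile. The 39 shared regions lie along the line, and crosses and plus signs at the margins mark the 3 control-only and 9 NMDA-only regions, none above percentile 33.

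The replicate columns of the NMDA list differed in level. The second column was higher in 37 of the 48 regions (77.1%), as in 79.4% of the whole list, with medians of 31.0 and 44.0. In the 39 shared regions the medians were 38.4 and 63.8, and in the 9 NMDA-only regions 10.0 and 10.5. The largest second-to-first ratio was 5.13, at the region by Trim38. The plot of replicate columns shows the NMDA-only regions at its lower left, with the one at H3c6 apart from the others through its second column.

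**Figure D4:**
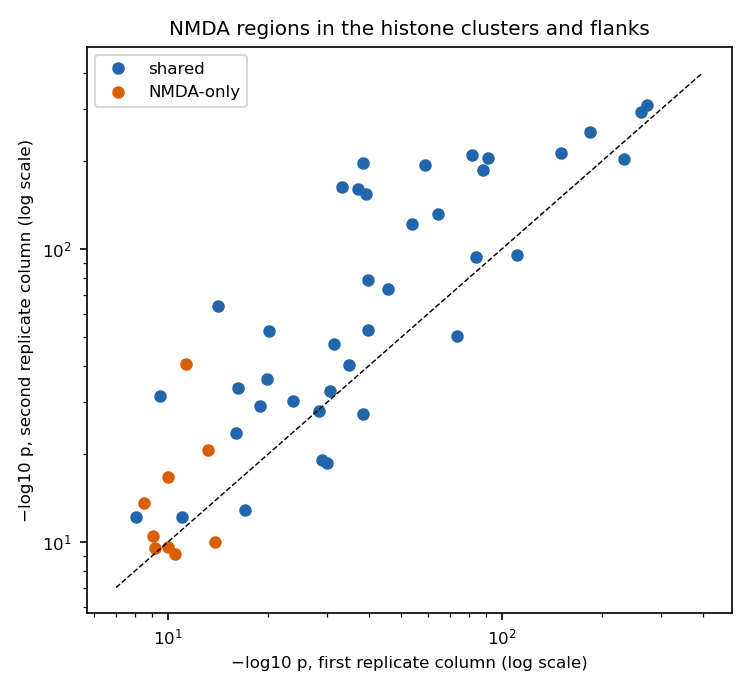
−log10 p of the 48 NMDA regions of the clusters and flanks in the first (x axis) and second (y axis) replicate column, both on log scales, with the dashed line at equal values. Most points lie above the line, and the NMDA-only regions are between 8.49 and 13.9 in the first column.

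Other genes of histone supply, from lists chosen with earlier results known, mostly carried shared regions. They are longer than the members, so their counts stand beside those over all genes, 48.4% shared, 9.28% control-only and 14.0% NMDA-only. The lists are short, and differences from these shares were not tested. Of 10 replication-independent histone variant genes, which are transcribed outside S phase, 7 had a shared and none a list-only region. The 95% Wilson interval of the shared share was 39.7 to 89.2%, which includes the 48.4%. The strongest by control percentile were at H3f3b, an H3.3 gene (chromosome 11, 116023349 to 116024560, 713 and 440, percentiles 95.2 and 94.8), and at H1f10 (chromosome 6, 87981508 to 87982929, 710 and 297, percentiles 95.2 and 87.2).

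Of 16 genes for histone transcription and transcript processing, 11 had a shared, 4 an NMDA-only and none a control-only region. The strongest lay at Lsm11, a component of the U7 particle that cuts histone transcripts (chromosome 11, 45943269 to 45945582, 1733 and 987, percentiles 99.8 and 99.7). Next by control percentile came Zfp473, a zinc finger protein gene of the same process (chromosome 7, 44744412 to 44746200, 884 and 302, percentiles 97.1 and 87.6). NMDA-only regions lay at Ncbp1, a cap-binding protein gene (chromosome 4, 46143950 to 46144921, 67.3, percentile 40.8, with 29.0 and 38.3 in the replicate columns), Casp8ap2, Sympk and Eri1, the last 3 below percentile 6. Slbp had 2 shared regions, at percentiles 79.0 and 43.2 in control.

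Of 10 histone chaperone genes, 9 had a shared, 3 an NMDA-only and 2 a control-only region. The 95% Wilson interval of their shared share was 59.6 to 98.2%, above the 48.4% of all genes, and this difference was not tested. The strongest were at Asf1b (chromosome 8, 83954871 to 83956098, 811 and 441, percentiles 96.4 and 94.9) and Chaf1b (chromosome 16, 93905404 to 93907385, 466 and 337, percentiles 88.2 and 90.2). The NMDA-only regions lay at Cabin1 (2 regions), Chaf1a and Atrx, and the control-only regions at Asf1b and Ubn1. The strongest of these list-only regions, in the span of Cabin1 (chromosome 10, 75757469 to 75758255), was at percentile 19.3.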

How the data were processed

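CTCF ChIP-seq of 4 samples, 2 control and 2 NMDA, was used; the 4 input samples were not analysed here. The authors deposited 1 region list per condition, over both replicates. FastQC, Trimmomatic, BWA, SAMtools and MACS2 and the builds mm10 and GRCm38.p6 are named, per the submitters' processing notes; tool versions and parameters were not given in the sources used here. The lists give the authors' score (540 to 1000) and the deposited −log10 p of each region. In the NMDA list that value equalled the sum of 2 replicate columns, within 0.001, in 36186 of 36186 regions. Which column is which replicate is not stated. No counts are listed, so depth is unknown and the −log10 p was ranked within a list only.

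Regions off the assembled chromosomes were left out (5 control, 7 NMDA). Each region was placed by its summit. A region with 1 bp or more in common with a region of the other list was shared, and list-only otherwise. Gene spans were those of RefSeq (GRCm38.p6), and strand and promoter sequences from a RefSeq promoter table of the same build. Shares have 95% Wilson intervals, which cover counting error only. Python 3.11.15, pandas 2.3.3 and scipy 1.17.1 were used, and the overlap and distance steps were tested on simulated data. The members, lists and tests were chosen with earlier results of these data known. The genes named were all those with a list-only region, the members at the strongest shared regions, the outermost members of each cluster and those farthest from any region. Of the other histone gene lists, members with a list-only region and those with the strongest shared regions were named.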

Additional observations from a re-analysis of the deposited data

How the results depend on the processing

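The control list has no replicate values, and the NMDA list has its 2 replicate columns. Over the alternative settings of the main results, 45 values stayed within their limits and 10 moved. The limit was a factor of 1.5 for a count and the 95% interval of the reported value for a share or median. These limits are wide: the control-only share of 7.14%, for example, came to 2.94% at a score of at least 830 and 3.33% with members taken by current symbol alone. The checks of starts and of summit spacing are not in these counts. The median spacing moved from 13.7 kb to 19.4 kb in control and 16.6 kb in NMDA with gaps that cross the border of a flank. With summits inside the gene span alone, 5 members had a shared, 1 an NMDA-only and 1 a control-only region; with 5 kb around the span 19 had a shared region. With a score of at least 830, the control-only count was 0 and the NMDA-only count 1, H3c6. With the weakest NMDA regions dropped until both lists had the same length, the NMDA-only count was again 1 and 7.50% of NMDA regions in the clusters were NMDA-only, against 11.7% of the whole list. Without flanks the clusters held 22 control and 23 NMDA regions. By the first or the second replicate column alone, the median percentile of the NMDA regions was 48.9 or 43.0. Ranking by column 7 was not run, since that column holds 1 constant value. No paired analysis was possible because the lists join both replicates and no test was made.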
